A study of Mus musculus with 20 samples.

Results

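Spermatid and sperm genes encode the parts that a male germ cell builds after meiosis. Here 40 of them were examined in cultured mouse germline stem cells (GSCs), which stand for a stage before meiosis. The genes were taken from a list of names and matched by symbol in both deposited tables, where all 40 were found among 25965 genes of the chromatin table and 25067 of the RNA table. In spermiogenesis the round spermatid grows an acrosome, which carries the enzymes and surface proteins for egg binding, and a flagellum, and it replaces its histones by transition proteins and then protamines. Many of these genes are transcribed only after meiosis, under the transcription factor CREM and testis forms of the general transcription machinery, and their messages are often stored before translation. H3K4me3 is a histone mark of promoters that are active or held open, H3K27me3 is the mark of Polycomb repression, and H3K9me3 marks heterochromatin.

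GSCs are the cultured counterpart of spermatogonial stem cells and were grown on fibroblast feeder cells. The control cells were Kmt2bF/F; Rosa26-CreERT2 and received ethanol only, while the knockout cells were of the same genotype and received 4-hydroxytamoxifen (4-OHT) at 1 μM, which activates the Cre recombinase that deletes Kmt2b, an H3K4 methyltransferase gene. Both were collected 6 days later, per the labels' protocols, and both carry the floxed alleles and the Cre transgene. Knockout and 4-OHT exposure therefore cannot be told apart. The 20 libraries comprised 2 control and 2 knockout libraries each for H3K4me3, H3K27me3, input DNA and RNA, and 2 H3K9me3 libraries with 2 inputs of their own from control cells only, made with another library kit. The labels give no harvest day or treatment for the H3K9me3 cells. Values are RPM (read counts as a proportion of each library's mapped total), in 1 window per gene for chromatin and per gene, without division by length, for RNA, so RNA levels of different genes are not compared.

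Mapped reads ran from 3830045 in H3K4me3 knockout replicate 1 to 18035122 in H3K4me3 control replicate 2, from 10538531 to 14810135 for H3K27me3, from 38458010 to 45771857 for RNA and from 41099186 to 63537169 for H3K9me3 and its inputs. H3K4me3 knockout replicate 1 also stood apart in having 20.7% of its reads in the windows, against 25.6% to 29.0% in the other 3. The row of Kmt2b, under its older symbol Wbp7, had RNA of 142 and 150 RPM in control cells and of 131 and 185 RPM in knockout cells, and reads summed over a gene do not check the deletion of exons. All 10 germ cell markers listed had RNA, with sums of 2708 and 2626 RPM in control and 2489 and 2747 RPM in knockout cells. The 25 fibroblast feeder markers summed to 600 and 636 RPM in control and to 665 and 836 RPM in knockout cells. Of 23 tested, 3 were called higher there and 0 lower, against 3.01% and 0.312% of all genes. Of markers of undifferentiated spermatogonia, 4 of 19 tested were called higher and 0 lower. Of those of differentiating spermatogonia, 0 of 8 were called higher and 1 lower. The 21 meiotic prophase genes found summed to 1275 and 1255 RPM in control and to 1097 and 1216 RPM in knockout cells. Of 20 tested, 0 were called higher and 0 lower. Whether any cells had entered meiosis was not tested. In such bulk samples, fewer cells of a type and less RNA per cell cannot be told apart.

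The first question was what the promoters of these genes carried in the control stem cells. A window was said to carry H3K4me3 where its log2(RPM + 0.5) exceeded that of the same-numbered input by 1.5 or more in each control library, and by this rule 21 of the 40 did, or 52.5%. Of all 25965 windows, 57.5% carried it by the same rule. For H3K27me3 the threshold was 1, which no member window reached in both libraries, against 9.8% of all windows, so the 21 were of the class with H3K4me3 only and the other 19 carried neither mark. The lowest ratio among the 21 was 1.57, at Tnp1, and the highest among the 19 was 0.91, at Pgk2, in the lower of the 2 libraries.

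The split ran through the functional groups rather than between whole groups. Of the 10 acrosome and sperm surface genes 8 carried H3K4me3, of the 11 flagellum genes 5, of the 8 regulators, kinases and chaperones 5, of the 5 chromatin packaging genes 1, of the 3 sperm calcium channel genes 1 and of the 3 germ cell metabolic enzymes 1.

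The members with and without the mark differed in the CpG content of their promoters. RefSeq promoters of GRCm38.p6, each with 250 bases before and 50 after the start, were matched to 32 members, of which 17 carried H3K4me3 and 15 did not. The marked promoters held between 6 and 41 CpG dinucleotides with a median of 14, and the unmarked between 0 and 6 with a median of 2. Only Tnp1, marked, and Tssk2, unmarked, met at 6. Over all 14648 matched windows, 10.6% of the 4888 promoters with 0 to 6 CpG carried H3K4me3, and 94.1% of the 9760 with 7 to 64 CpG did. The division among the members was like that among all windows. For Tekt1, Odf2, Tbpl1 and Tssk3 the RefSeq start lay 560, 499, 491 and 252 bases from the deposited one. Acr, Adam2, Adam3, Fabp9, Catsper1, Odf1, Crem and Ropn1 had no match.

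**Figure D1:**
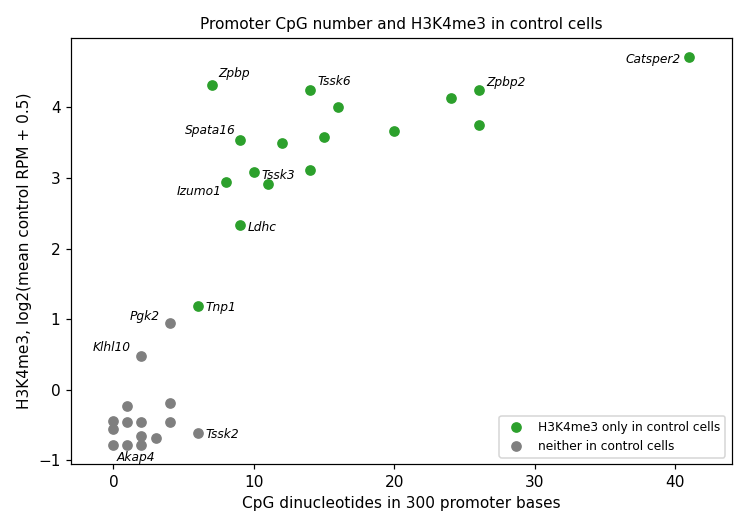
Number of CpG dinucleotides in the 300 promoter bases (x axis) against H3K4me3 in control cells, as log2 of the mean RPM of 2 libraries plus 0.5 (y axis), for 32 members, in green with H3K4me3 and in grey with neither mark. The 17 marked genes lie at 6 or more CpG and the 15 unmarked at 6 or fewer, and Zpbp combines 7 CpG with 19.5 RPM.

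A set of 5 promoters are shown, reading 5′ to 3′ and ending at the base before the RefSeq start, because they span the range from no CpG to many; capitals mark each CG. Prm2 (chr16:10792106-10792355, minus strand) encodes a protamine and Akap4 (chrX:7067265-7067514, plus strand) a scaffold of the flagellum's fibrous sheath, and both were without H3K4me3. Zpbp (chr11:11462420-11462669, minus strand) and Zpbp2 (chr11:98550847-98551096, plus strand) encode related acrosome proteins that bind the zona pellucida, and Spata16 (chr3:26637381-26637630, plus strand) encodes a Golgi and acrosome protein of spermatids; these 3 carried the mark.
Prm2: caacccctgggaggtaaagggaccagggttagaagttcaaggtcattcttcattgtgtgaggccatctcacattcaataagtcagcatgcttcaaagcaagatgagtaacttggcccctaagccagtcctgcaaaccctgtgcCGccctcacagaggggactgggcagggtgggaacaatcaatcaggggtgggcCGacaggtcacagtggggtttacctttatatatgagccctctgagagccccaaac
Akap4: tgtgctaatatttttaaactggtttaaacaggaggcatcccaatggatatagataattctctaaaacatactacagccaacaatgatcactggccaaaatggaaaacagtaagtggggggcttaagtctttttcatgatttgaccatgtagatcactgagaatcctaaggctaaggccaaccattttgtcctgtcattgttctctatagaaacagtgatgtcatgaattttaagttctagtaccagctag
Zpbp: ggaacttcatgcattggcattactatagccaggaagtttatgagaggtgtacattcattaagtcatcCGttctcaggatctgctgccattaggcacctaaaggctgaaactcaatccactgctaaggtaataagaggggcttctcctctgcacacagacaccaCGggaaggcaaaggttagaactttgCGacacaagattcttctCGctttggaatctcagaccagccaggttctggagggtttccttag
Spata16: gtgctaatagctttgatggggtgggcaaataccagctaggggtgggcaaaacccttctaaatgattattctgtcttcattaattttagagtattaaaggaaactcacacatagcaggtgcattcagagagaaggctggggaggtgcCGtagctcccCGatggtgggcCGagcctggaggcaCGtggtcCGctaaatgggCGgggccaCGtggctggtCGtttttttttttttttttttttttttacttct
Zpbp2: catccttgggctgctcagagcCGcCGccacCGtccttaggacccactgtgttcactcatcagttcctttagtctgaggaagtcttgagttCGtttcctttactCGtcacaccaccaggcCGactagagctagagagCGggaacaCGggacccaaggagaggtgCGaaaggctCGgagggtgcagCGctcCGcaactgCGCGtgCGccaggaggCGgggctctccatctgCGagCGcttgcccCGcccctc
In these 250 bases there were 2 CG in Prm2, 0 in Akap4, 4 in Zpbp, 8 in Spata16 and 19 in Zpbp2. Zpbp and Zpbp2 had similar H3K4me3 (19.7 and 19.2 RPM for Zpbp, 15.7 and 21.1 RPM for Zpbp2 in the control libraries) with very different CpG numbers. The start of 4930415F15Rik lies 314 bases from that of Zpbp on the opposite strand, with 20.2 and 22.2 RPM in the control libraries. Whether the Zpbp window shares reads with it was not tested.

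The full cAMP response element TGACGTCA, the motif that CREM binds, was searched on both strands of the 300 bases and found in 2 of the 32 promoters, those of Izumo1 and Spag6, and in 2.41% of the 14648. Its shorter core TGACG, which lies within it, was in 10 of 32 (24.8% of all promoters). The E-box CACGTG was in 1, Spata16 (8.17%), and TTCCCGC, an E2F-type motif, was in 3, Prm3, Spaca1 and Zpbp2 (6.25%). The promoter of Izumo1, the sperm protein needed for fusion with the egg, is shown with its element in capitals (chr7:45621561-45621810, plus strand), which begins at base -96 from the start.
Izumo1: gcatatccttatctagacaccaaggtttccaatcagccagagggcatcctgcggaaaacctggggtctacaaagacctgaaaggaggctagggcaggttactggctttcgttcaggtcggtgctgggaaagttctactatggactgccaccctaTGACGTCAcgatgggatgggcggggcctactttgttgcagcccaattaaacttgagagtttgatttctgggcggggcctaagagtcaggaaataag
These are letter matches, not sites shown to be bound.

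In the group listed as chromatin packaging, Prm1, Prm2, Prm3 and Tnp2 had no read in any of the 4 RNA libraries. These genes, of which Tnp2 encodes a transition protein, lie side by side on chromosome 16. A count of 0 allows up to 0.0780 RPM in control replicate 1, the shallowest (3 reads), for counting error only. Their H3K4me3 windows held between 1 and 5 reads in each control library. Tnp1, the other transition protein gene, on chromosome 1, differed from them. It had 13 and 41 H3K4me3 reads in the control libraries (1.25 and 2.27 RPM), 1.58 above input on the log2 scale (limma adjusted p = 4.49e-06), and RNA of 0.598 and 0.383 RPM. Tnp1 was also the 1 member with H3K27me3 called above input in control cells, by 1.04 (SE 0.35; limma adjusted p = 0.0112), though it did not reach the class threshold, with ratios of 1.37 and 0.72. Tnp1 passed the 0.5 RPM filter of these tests over input through the mark libraries only. Its input mean was 0.254 RPM, against 1.76 RPM for H3K4me3 and 1.02 RPM for H3K27me3. The filter thus favoured a higher value in both marks.

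Acrosome and surface genes carried the mark at the zona-binding genes Zpbp and Zpbp2, at Spaca1 (14.5 and 16.5 RPM), a membrane protein of the acrosome, and at Spata16 (10.2 and 11.98 RPM). The ADAM family genes Adam2 (7.24 and 10.7 RPM) and Adam3 (7.53 and 8.15 RPM), which encode sperm surface proteins, Fabp9 (6.85 and 11.6 RPM), a lipid-binding protein of the perforatorium, and Izumo1 (6.47 and 7.87 RPM) had lower levels. The acrosomal protease gene Acr had 2 and 0 reads in the control windows and the acrosomal vesicle gene Acrv1 3 and 3. Acrv1 RNA was limited to 1 read in 1 of 4 libraries, whereas Acr RNA lay between 0.563 and 0.918 RPM.

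The sperm calcium channel subunit genes divided in the same way. Catsper2 had the highest H3K4me3 of the 40 (24.5 and 26.9 RPM), while Catsper1 and Catsper4 had at most 5 reads in any H3K4me3 library. The start of Catsper2 lies 17 bases from that of Pdia3 on the opposite strand, an endoplasmic reticulum chaperone gene with 24.7 and 26.1 RPM of H3K4me3, so these windows may share reads. Starts on the opposite strand within 1000 bases were also found for Zpbp, Tssk1, Tssk3, Tssk6, Hspa1l and Klhl10, and since the size of the windows is not given, whether these share reads with a neighbour was not tested. Tssk6 lies 374 bases from Ndufa13, with 20.6 and 25.0 RPM, and 528 bases from Yjefn3, with 21.6 and 24.0 RPM. Tssk3 lies 168 bases from 1700125D06Rik, with 12.4 and 11.8 RPM.

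In the flagellum group the mark was at Odf2 (11.4 and 14.5 RPM), a protein of outer dense fibres and centrosomes, at Tekt1 and Tekt2, which encode tektins of the axonemal microtubules, at the axonemal dynein gene Dnahc1 and at Spag6, an axoneme central apparatus gene. Their control levels ran from 8.15 RPM at Tekt2 to 14.5 RPM at Odf2. It was not found at the fibrous sheath scaffold genes Akap3 and Akap4 and their partner Ropn1, at the outer dense fibre gene Odf1, at Smcp of the mitochondrial capsule or at Spem1. Of the members tested, Akap3 was the 1 with H3K4me3 called below input in control cells, by a log2 difference of -0.78 (SE 0.34; limma adjusted p = 0.0237). Akap3 passed the 0.5 RPM filter of this test through its input libraries only, with means of 0.235 RPM in H3K4me3 and 0.779 RPM in input. The filter thus favoured a lower value.

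Of the germ cell forms of glycolytic enzymes, the lactate dehydrogenase gene Ldhc had 5.21 and 3.88 RPM of H3K4me3. The retrogene Pgk2, a phosphoglycerate kinase, had 1.64 and 1.22 RPM, above input by 0.91 (SE 0.34; limma adjusted p = 0.00855) but under the class threshold. Gapdhs, the sperm glyceraldehyde phosphate dehydrogenase gene, had 0 and 3 reads. Among regulators, Crem (21.0 and 21.4 RPM), Tbpl1 (15.8 and 18.3 RPM), a relative of the TATA-binding protein, and the testis kinase genes Tssk3 (7.91 and 7.98 RPM) and Tssk6 (16.1 and 21.0 RPM) carried it, while Tssk1, Tssk2 and Klhl10, an adaptor of ubiquitin ligases, did not. The HSP70 gene Hspa1l had 6.37 and 7.76 RPM.

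**Figure D2:**
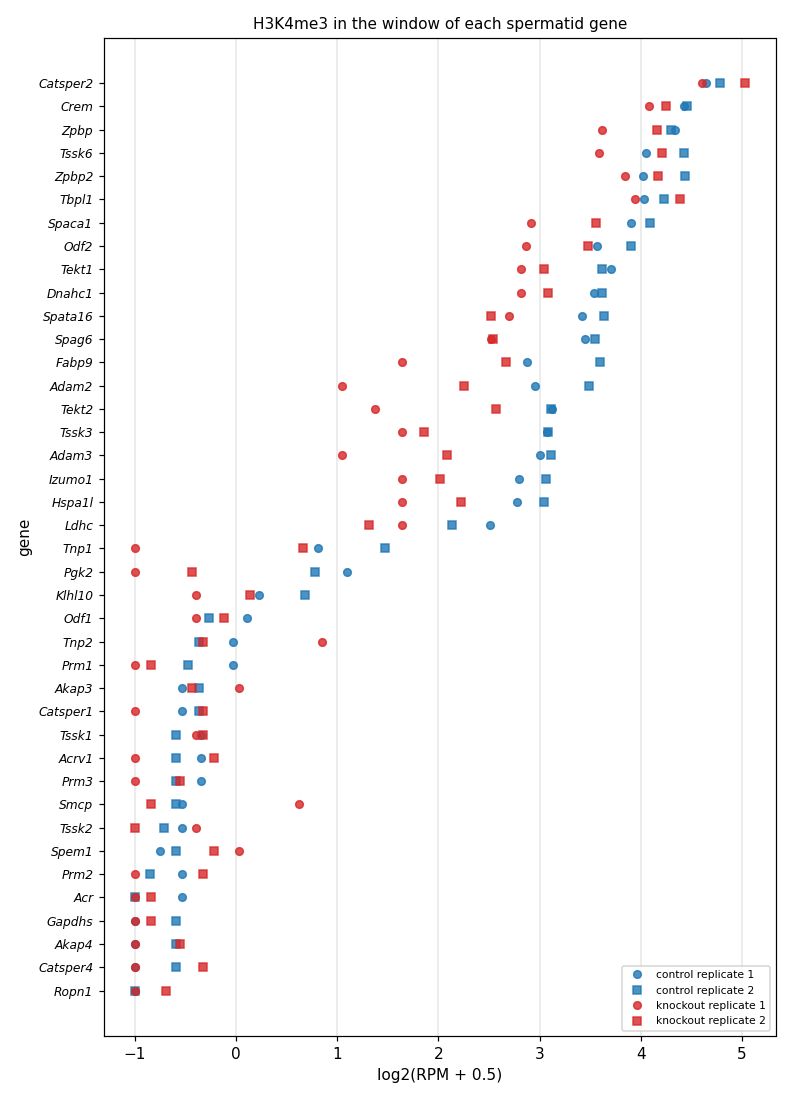
H3K4me3 in each of the 4 libraries as log2(RPM + 0.5) (x axis) for the 40 genes (y axis), ordered by the control mean; blue points are control and red points knockout, circles replicate 1 and squares replicate 2. From Tnp1 upward stand the 21 marked genes, and in most of these the red points lie left of the blue ones, with Adam2, Adam3 and Tssk3 among the widest gaps and Catsper2 and Tbpl1 without one.

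Against input in the control libraries, limma tested 25 members over the filter for low values and called 22 higher in H3K4me3, against 94.9% of all 16542 windows tested, and 1 lower (1%). The median log2 difference of the 25 was 3.20 and that of all windows 4.00. For H3K27me3, 20 members were tested, of which Tnp1 was higher and Spaca1 lower (-0.98, SE 0.40; limma adjusted p = 0.042), against 28% and 5.23% of 12430 windows. Spaca1 passed the filter through its input libraries only, with means of 0.194 RPM in H3K27me3 and 0.916 RPM in input. The filter thus favoured a lower value for Spaca1, as it favoured a higher one for Tnp1. Without input replicate 1, limma called 0 members in either direction in H3K27me3, and Akap3 was no longer called in H3K4me3.

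Most members with the mark passed the filter for RNA, and most without it did not. Of the 40, 18 passed the RNA filter (a mean log2 RPM of at least 0 over 4 libraries), 18 had reads but stayed under it and 4 had none. Of all 25067 genes, 14100 passed it. Of the 21 marked members 17 passed, and of the 19 unmarked members 1 did, Klhl10 (1.22 and 1.19 RPM in control cells). Its start lies 109 bases from that of Nt5c3l, which had 32.1 and 32.5 RPM of RNA. Akap4, also unmarked, had 1.01 and 1.24 RPM of RNA in control cells and 0.808 and 0.799 RPM in knockout cells. It stayed under the filter. The 4 marked members under the filter were Tnp1, Adam3, Tssk3 and Tssk6, 19.0% of the marked members, against 18.3% of all 14526 marked windows with an RNA row. For windows without H3K4me3 no such share was taken, so the unmarked members were not set against it. Tssk6 had 1 and 0 RNA reads in the control libraries with 167 and 378 reads of H3K4me3, and Tssk3 had 1 and 4 RNA reads with 82 and 144. Both have neighbours on the opposite strand, as given above, and Yjefn3 beside Tssk6 had 105 and 102 RPM of RNA in control cells. Which gene the mark in these windows belongs to was not tested.

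The next question was whether H3K4me3 at these promoters changed when Kmt2b was deleted. It fell at Adam2 and Adam3. Adam2 (chr14:66027329-66077733, mm10) had 7.24 and 10.7 RPM in control cells, from 75 and 193 reads, and 1.57 and 4.28 RPM in knockout cells, from 6 and 71 reads. Both knockout libraries lay under both control libraries, and the means were 8.97 ± 2.45 and 2.92 ± 1.92 RPM (SD, n = 2), a log2 change of -1.76 (SE 0.55; limma adjusted p = 0.0264). Adam3 (chr8:24677225-24725852) had 7.53 and 8.15 RPM in control cells and 1.57 and 3.74 RPM in knockout cells, from 78, 147, 6 and 62 reads. The groups again did not overlap, with means of 7.84 ± 0.44 and 2.65 ± 1.54 RPM (SD, n = 2) and a log2 change of -1.69 (SE 0.57; limma adjusted p = 0.0377). Without the shallow knockout replicate 1 the log2 changes were -1.04 and -1.07, and neither was called (limma adjusted p = 0.0997 and 0.108). Neither was called without control replicate 1 or without control replicate 2, under quantile normalization or after division by input either, and Adam3 was not called without the filter on low values.

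In all, 21 members were tested in this comparison, the same 21 that carried the mark in control cells, with 2 called lower and 0 higher, against 9.9% and 0.0512% of 15624 windows. Before adjustment, 11 were lower and 0 higher at a p under 0.05, while limma voom on the recovered reads called 14 lower and 1, Catsper2, higher. The knockout libraries lay below both control libraries at 17 of the 21 and above them at 0, against 42.8% and 8.98% of all windows. The median log2 change was -0.98, against -0.26 over all windows, and 19 of the 21 values were negative. Under quantile normalization 13 were negative and 8 positive, with a median of -0.12 and 0 called.

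Beyond the 2 called genes, the next by p were Tssk3, Tekt2, Fabp9 and Spag6. Tssk3 had 7.91 and 7.98 RPM in control cells and 2.61 and 3.14 RPM in knockout cells, so that both pairs were tight and well apart, with a log2 change of -1.47 (SE 0.55; limma adjusted p = 0.0622). It was called with either knockout library left out (limma adjusted p = 0.0444 without replicate 1) and under median centring, and not with either control library left out, under quantile normalization (-0.31) or after division by input. At 1700125D06Rik, whose start lies 168 bases from that of Tssk3, H3K4me3 was 12.4 and 11.8 RPM in control and 3.13 and 4.77 RPM in knockout cells. Which of these neighbouring genes the fall belongs to was not tested. Tekt2 had 8.20 and 8.15 RPM against 2.09 and 5.43 RPM, a log2 change of -1.28 (SE 0.53; limma adjusted p = 0.1). Fabp9 had 6.85 and 11.6 RPM against 2.61 and 5.85 RPM, a log2 change of -1.19 (SE 0.51; limma adjusted p = 0.113), and Spag6 10.4 and 11.2 RPM against 5.22 and 5.31 RPM (-1.04, SE 0.47; limma adjusted p = 0.133). In each of the 4 the groups did not overlap. Tnp1 went from 13 and 41 reads to 0 and 18, where 0 reads in the shallow library allow up to 0.783 RPM, and it passed the filter through the control libraries only.

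Members with more H3K4me3 in control cells had smaller differences on the whole. The 9 with a control mean from 12 RPM up to that of Catsper2 had log2 changes between -0.79 and 0.10 with a median of -0.35, and the 12 below 12 RPM had changes between -1.76 and -0.67 with a median of -1.21. This division was chosen after the values were seen. Among all windows within the same 2 ranges the medians were -0.19 over 9376 and -1.07 over 3831, of which 7.72% and 20.6% were called lower. Catsper2 had 24.5 and 26.9 RPM against 23.8 and 32.1 RPM, and Tbpl1 15.8 and 18.3 RPM against 14.9 and 20.4 RPM, so that the knockout values lay on either side of the control values for both. Crem had 21.0 and 21.4 RPM against 16.4 and 18.5 RPM, a log2 change of -0.28 that was not called.

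By the class thresholds applied to the knockout libraries, 13 members carried H3K4me3, all of them among the 21, against 51.6% of all windows. Those under it were Tnp1, Adam2, Adam3, Fabp9, Izumo1, Tssk3, Tekt2 and Hspa1l. Of these 8, Adam2, Adam3, Fabp9, Izumo1 and Tekt2 missed the threshold only in the shallow knockout replicate 1, and Tnp1, Tssk3 and Hspa1l missed it in both libraries, so that by knockout replicate 2 alone 18 of the 21 stayed over it. Input values at Hspa1l were higher in the knockout, with a log2 change of 1.68 (unadjusted p = 0.0113 in limma). Over the 21 members limma called 0 in the input in either direction, with 0 lower and 1 higher at an unadjusted p under 0.05 and a median of -0.00.

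H3K27me3 was examined at the same promoters. Only 7 members passed the filter of 1 RPM, and none was called in limma (0 lower and 0 higher; before adjustment 0 and 2 had a p under 0.05, and limma voom called 0), against 0% and 0.791% of 4807 windows. The 2 were Adam2 and Tssk3. Adam2 had 1.51 and 1.099 RPM in control cells and 2.97 and 2.85 RPM in knockout cells, a log2 change of 1.18 (SE 0.55; limma adjusted p = 0.345). Tssk3 had 1.64 and 1.46 RPM against 4.997 and 2.37 RPM, a log2 change of 1.15 (SE 0.55; limma adjusted p = 0.366). In both genes the knockout libraries were above the control libraries.

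Spata16 (1.37 and 0.916 RPM against 2.36 and 2.09 RPM) and Adam3 (0.753 and 0.641 RPM against 1.96 and 1.04 RPM) were also apart without passing the test. The groups did not overlap at 4 of the 7 in the direction of higher values and at 1, Ropn1, in the direction of lower values, against 36.9% and 3.14% of windows. Adam3 passed the filter only through the knockout libraries (means of 0.697 and 1.501 RPM in control and knockout) and Ropn1 only through the control libraries (1.06 and 0.947 RPM), so the filter favoured their directions. The median change of the 7 was 0.99, against 0.45 over all windows, and under median centring 4 were positive and 3 negative. By the class thresholds in knockout cells, Spata16 and Spag6 carried both marks and Adam2 and Tssk3 H3K27me3 only, 4 of 40 with H3K27me3 against 13.1% of all windows. None of these 4 moves was a called change in H3K27me3, and the cause of the crossings was not tested.

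**Figure D3:**
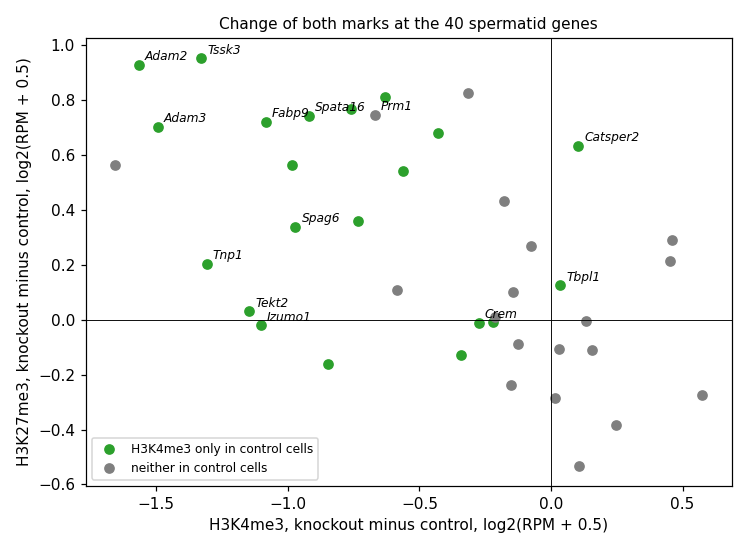
Change from control to knockout in H3K4me3 (x axis) and in H3K27me3 (y axis), each as the difference of the mean log2(RPM + 0.5) of 2 libraries, for the 40 genes, in green with H3K4me3 in control cells and in grey with neither mark. Adam2, Adam3 and Tssk3 lie at the upper left, and Catsper2 and Tbpl1 to the right of 0 on the x axis; grey points rest on few reads.

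Of the spermatid genes whose RNA was tested, Fabp9 was called lower and no other was called. It had 2.57 and 3.22 RPM in control cells, from 99 and 143 reads, and 0.765 and 1.099 RPM in knockout cells, from 35 and 44 reads. Both knockout libraries were under both control libraries, with means of 2.90 ± 0.459 and 0.932 ± 0.237 RPM (SD, n = 2) and a log2 change of -1.65 (SE 0.26; limma adjusted p = 0.0281). Fabp9 passed the RNA filter through its control libraries, with a mean log2 RPM of 1.53 there and of -0.13 in the knockout, so the filter favoured a lower value in the knockout, and the call was lost without the filter (limma adjusted p = 0.0928). H3K4me3 at Fabp9 was also lower, as given above, without being called.

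Of 18 members tested in RNA, 1 was called lower and 0 higher, against 0.312% and 3.01% of 14100 genes, and 2 and 3 passed an unadjusted p under 0.05. The median log2 change was 0.04 against 0.06 over all genes, with 9 values negative and 9 positive. The groups did not overlap at 4 in the direction of lower and 7 in the direction of higher, against 16% and 36.2% of genes. The 18 passed a filter on their mean over all libraries, Fabp9 and Klhl10 only through the control group, and for the other 22 members RNA was too low to test.

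Tekt2 RNA had 8.71 and 9.47 RPM in control cells and 12.2 and 13.2 RPM in knockout cells, a log2 change of 0.49 (SE 0.12; limma adjusted p = 0.079), opposite in sign to its H3K4me3. Ldhc had 8.92 and 8.63 RPM against 6.84 and 5.90 RPM (-0.47, SE 0.13; limma adjusted p = 0.117). Odf2 had 40.2 and 37.7 RPM against 45.4 and 50.6 RPM (0.30, SE 0.10; limma adjusted p = 0.173), and Crem 5.56 and 5.18 RPM against 6.77 and 6.82 RPM (0.34, SE 0.13; limma adjusted p = 0.207). In these 4 genes the 2 groups did not overlap, but none was called.

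Adam2, with its fall in H3K4me3, had 1.35 and 1.53 RPM of RNA in control cells and 2.21 and 1.27 RPM in knockout cells, which overlap. Adam3 had 3 and 4 reads against 5 and 9, too few to test. Tbpl1 (53.0 and 51.9 RPM against 55.6 and 56.5 RPM), Hspa1l (10.2 and 10.6 RPM against 7.52 and 10.2 RPM) and Dnahc1 (9.31 and 10.1 RPM against 9.02 and 10.4 RPM) had log2 changes of 0.10, -0.25 and -0.00, none called. The sign for Tbpl1 turned under median centring.

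RNA of a further pair has to be read with care. Spag6 had 252 and 264 RPM in control cells and 260 and 232 RPM in knockout cells, with a log2 change of -0.07. Its row lies on chromosome 16, where RefSeq lists it as Spag6l, and a related gene of the same name lies on chromosome 2. It also spans the ribosomal protein copy Rpl31-ps12, so its reads are uncertain. Izumo1 had 29.6 and 31.3 RPM against 31.2 and 33.2 RPM, and its RNA row ends at 45639093, over the gene Rasip1 (45627537 to 45639092), so reads of the 2 cannot be told apart.

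**Figure D4:**
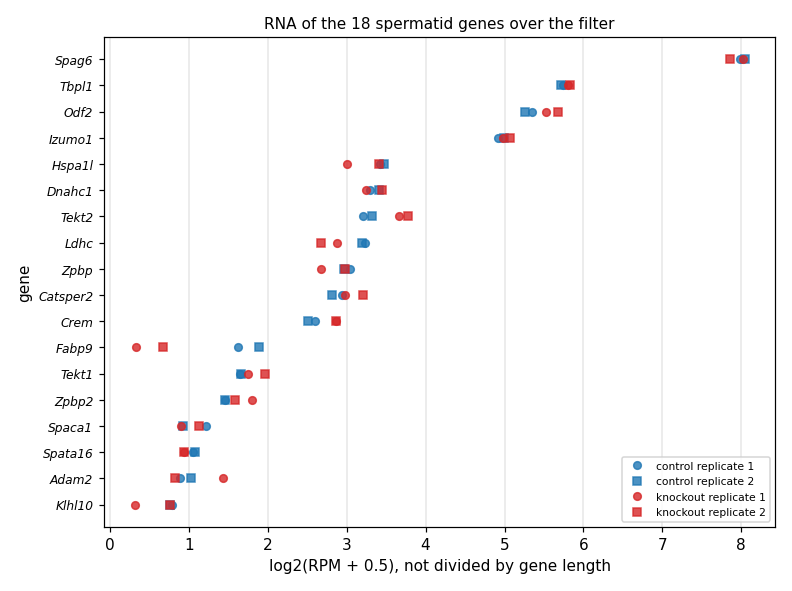
RNA in each of the 4 libraries as log2(RPM + 0.5) (x axis) for the 18 genes over the RNA filter (y axis), with control in blue, knockout in red, replicate 1 as circles and replicate 2 as squares. Fabp9 is the gene with red points far left of the blue ones (0.765 and 1.099 against 2.57 and 3.22 RPM), and in Tekt2 they lie to the right.

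H3K9me3, measured only in control cells, was not found at these promoters. None of the 40 reached a log2 ratio of 1 over input in all 4 combinations of 2 mark and 2 input libraries, against 1.69% of all windows, and none passed the mean of 0.5 RPM needed for the test (0 called of 0 tested, against 62.1% higher and 0.673% lower of 1337 windows). Without that filter limma called 36 of the 40 lower than input and 0 higher, against 81.4% and 6.13% of 25249 windows, with a median log2 difference of -0.66 for the members and of -0.66 for all windows. H3K9me3 libraries as a whole had 0.449% and 0.442% of their reads in windows, against 1.02% and 1.07% for their inputs; the part of this difference in the ratios was not tested.

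The members with most H3K9me3 were Pgk2, with 0.414 and 0.454 RPM against 0.362 and 0.449 RPM in the inputs, and Tnp1, with 0.268 and 0.355 RPM against 0.393 and 0.307 RPM. In both genes the values of mark and inputs overlapped. The median of the 21 members with H3K4me3 was 0.0730 and 0.0790 RPM, and that of the 19 without it 0.122 and 0.118 RPM, while the input medians were 0.425 and 0.449 RPM and 0.393 and 0.426 RPM. The testis enzyme gene Ldhc had 0 H3K9me3 reads in replicate 2, and Tekt2 and Catsper1 had 0 in replicate 1.

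**Figure D5:**
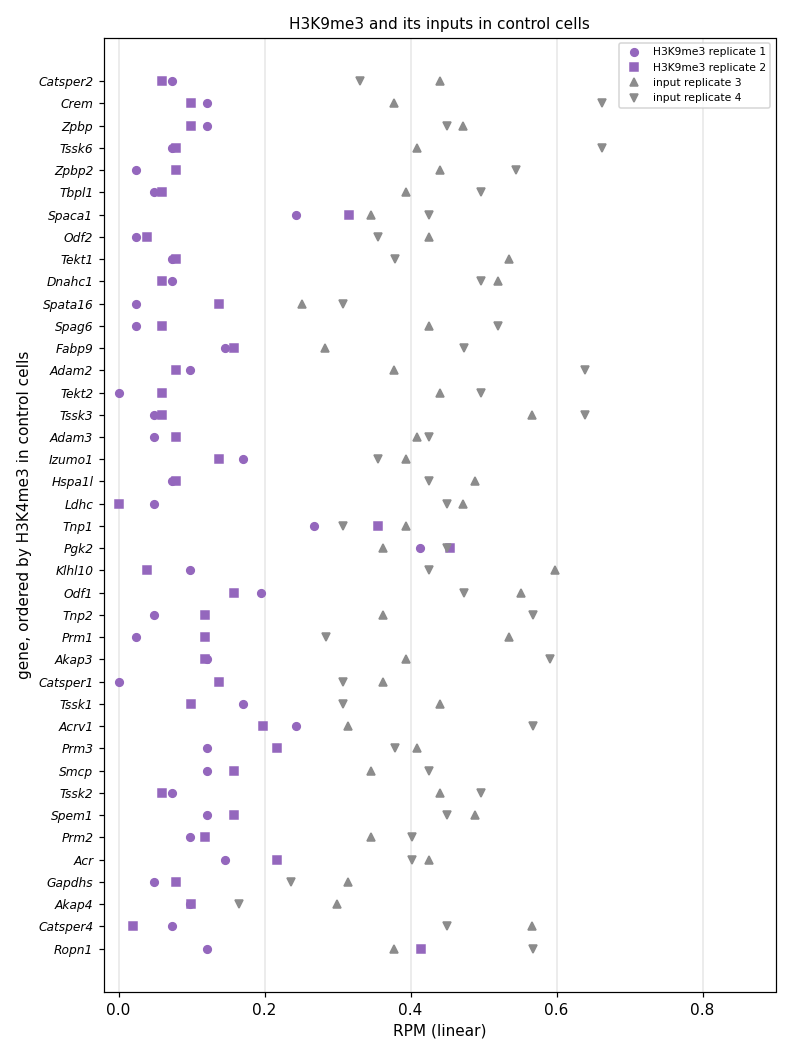
H3K9me3 (purple) and its inputs (grey) in control cells as RPM on a linear axis (x) for the 40 genes (y), ordered by control H3K4me3. Purple points lie left of the grey ones in nearly all genes, and Pgk2 (0.414 and 0.454 RPM), Tnp1, Spaca1 and 1 library of Ropn1 come closest to the inputs.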

How the data were processed

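The chromatin and RNA tables deposited by the authors hold log2 RPM per gene for 20 samples, with CASAVA 1.8, Trim Galore 0.4.0, Bowtie 1.1.1, TopHat2 2.0.14 and build mm10 named, without their roles, per the submitters' processing notes. Window size and the strand setting of RNA counting are not given in the sources used here. In each library the deposited log2 values, taken out of the log, were whole multiples of 1 step (100% within 0.1 of a whole read, with the lowest value at 0.9 of a step for no read), which gave reads and depth. The series' design text speaks of duplicate cell lines, and p-values measure only the spread between 2 libraries per group.

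Each mark, input and RNA was tested in limma 3.58.1 (R 4.3.3) on the deposited values, with the prior variance following the mean level. Tests were two-sided, p-values were adjusted by Benjamini-Hochberg over every feature tested, and features under 0.05 were called. Windows needed a mean of 1 RPM, RNA a mean log2 RPM of 0, and tests over input a mean of 0.5 RPM with a pseudocount of 0.5 RPM. The scripts were tested on simulated data. A count model was planned for counts, but the unit was log2; limma voom on recovered reads was an alternative, beside other scalings, pseudocounts, filters, thresholds, left-out libraries and a replicate block. Classes used log2 ratios to the same-numbered input of at least 1.5 (H3K4me3) and 1 (H3K27me3); H3K9me3 needed 1 in every combination. RefSeq promoters were matched by strand within 1000 bases. In marks and RNA between genotypes, SE and adjusted p are given for members called and up to 6 at an unadjusted p under 0.05. The 6 tested members with most control RNA otherwise have levels or a log2 change. Of other spermatid genes, up to 6 called per comparison have reads, levels or a log2 change. Members and lists were chosen with earlier results of these data known.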

Additional observations from a re-analysis of the deposited data

How the results depend on the processing

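Groups held 2 libraries each, and in H3K4me3 knockout replicate 1 a level of 0.783 RPM stood for 3 reads. For H3K4me3 between genotypes, the 2 members called lower became 0 under quantile normalization, 0 after division by input and 14 in limma voom, which also called 1 higher in place of 0. Leaving out 1 library gave 0 to 16 lower calls: 0 without either control replicate, 1 (Tssk3) without knockout replicate 1 and 16 without knockout replicate 2. For RNA, the 1 lower call became 0 without the filter on low values, and leaving out 1 library gave 1 to 4 lower and 0 to 3 higher calls. Over input in control cells, the 1 lower call in H3K4me3 became 7 without the filter and 0 to 1 with 1 library left out. In H3K27me3 the 1 lower call became 0 with a pseudocount of 0.25 RPM and 4 without the filter, and lower and higher calls ran from 0 to 1 and from 0 to 2 with 1 library left out. H3K9me3 gave 36 lower calls in place of 0 without the filter. Classes set from the knockout libraries gave 13 members with H3K4me3 in place of 21 and 4 with H3K27me3 in place of 0; by knockout replicate 2 alone 18 of the 21 kept H3K4me3. Fits without 1 library take the spread from the other group and assume that the lone library varies alike. Among single genes in RNA, the log2 change turned sign at Tbpl1 (-0.0013) and Izumo1 (-0.019) under median centring, and with 1 library left out Spag6 ran from -0.15 to 0.0097 and Dnahc1 from -0.11 to 0.10. Of the other values for single genes, 194 kept their side of the threshold, 26 passed it and 49 lost it; the cause was not tested.

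The labels do not say that a replicate number marks shared cells, and same-numbered samples deviated together with a correlation of 0.149 for H3K4me3, 0.0617 for H3K27me3 and 0.0909 for RNA. With a replicate block, 10 members were called lower in H3K4me3 in place of 2, 2 higher in H3K27me3 in place of 0 (Adam2 and Tssk3), and 2 lower and 1 higher in RNA in place of 1 and 0.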

Other observations

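Among 76 other spermatid genes, chosen by name and found in both tables, 6 of 39 tested had called falls of H3K4me3 in limma and 0 rises, against 9.9% and 0.0512% of all windows, with a median log2 change of -0.70. Adam5, a relative of Adam2 and Adam3, had 6.27 and 9.70 RPM in control cells and 0.522 and 4.22 RPM in knockout cells, from 65, 175, 2 and 70 reads (log2 change -2.39). H1fnt, a spermatid linker histone gene, had 27 and 75 reads against 0 and 11, so that its fitted change depends on the value given to 0 reads. H1fnt passed the 1 RPM filter through the control libraries only (2.61 and 4.16 RPM against 0 and 0.664 RPM), so the filter favoured a fall. Input at H1fnt was also lower in the knockout, by a log2 change of -1.63 (SE 0.52; unadjusted p = 0.0018 and adjusted p = 0.966 in limma). Spag17 (-1.69), Tekt5 (-1.85), Dkkl1 (-1.14) and Spata18 (-1.25) were the others. Without the shallow knockout replicate 1, Adam5 (-0.89), Tekt5 (-0.79) and Spata18 (-0.91) were no longer called.

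In RNA, 2 of 30 tested were called higher in limma, Dkkl1 and Catsperg1, and 0 lower (3.01% and 0.312% of all genes). Dkkl1, an acrosomal protein gene, had 4.06 and 4.21 RPM of RNA in control cells and 7.78 and 7.54 RPM in knockout cells (log2 change 0.89), while its H3K4me3 was 16.5 and 16.3 RPM against 6.53 and 8.44 RPM. RNA and H3K4me3 thus differed in opposite directions at this gene, with no overlap of groups in either. Catsperg1, a subunit gene of the sperm calcium channel, had 12.8 and 14.4 RPM of RNA against 20.3 and 25.0 RPM (0.73). In control cells, 6 of these 76 promoters had both marks, against 7.68% of all windows, and 3 of 76 had H3K27me3 only, against 2.13%. The 40 genes above held none of either class. Spata18 of this list was above input in H3K27me3 with a log2 difference of 3.04. The difference between the lists was not tested.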
